A study of Bos taurus with 24 samples.

Results

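The miR-130, miR-301 and miR-454 family was described in 22 small RNA libraries of bovine mammary gland. Its members were the rows named exactly bta-miR-130a, bta-miR-130b, bta-miR-301a, bta-miR-301b and bta-miR-454. All 5 were listed, out of 796 miRNAs, and each had counts in every library. The libraries came from 5 Holstein (HOLS) and 6 Montbéliarde (MONT) cows in midlactation, which had calved more than once. Each cow was biopsied on day 0, while fed freely (CONT), and on day 6 of a feed restriction (REST). The labels give the restricted ration as 60% of the net energy needed for lactation, and the methods of the study state a lower share. No cow was followed without restriction and the biopsies of a cow were taken at alternating sites of the rear udder, so restriction, time and site cannot be told apart. A further HOLS cow in the labels was not analysed here. A biopsy holds epithelium, stroma, vessels and blood cells, so more cells of a type and more of a miRNA per cell cannot be told apart.

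Members of a miRNA family share the seed, the stretch near the 5′ end through which a miRNA pairs with its messenger RNA targets, and can therefore repress many of the same transcripts. One target of this family is PPARG, the nuclear receptor that drives adipocyte differentiation and lipid synthesis, and miR-130a and miR-130b are known to repress it in fat cells. In the lactating gland PPARG is studied as a regulator of milk fat synthesis. In the RefSeq gene table (assembly ARS-UCD2.0) all 5 members had a gene. MIR301A and MIR454 were next to each other and both overlapped SKA2, a gene of the mitotic spindle. MIR130B and MIR301B were also next to each other. MIR130A stood apart from the rest of the family, with YPEL4 as the next gene. Since mature miR-130a and miR-130b are nearly identical, as are miR-301a and miR-301b, and the handling of shared reads was not given in the sources used here, the values of the scarce miR-130b and miR-301b are uncertain.

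Total counts per library ranged from 6087865 to 18913916, with a median of 10947822.5. REST libraries had the higher medians, 14376578 against 10786816 counts in HOLS and 10756329.5 against 9107961 in MONT. The 6 epithelial marker miRNAs (the miR-200 group, miR-141 and miR-205) together made up 12719 to 48681 CPM (counts per 1000000 counts), so every library held epithelial miRNAs. Whether the epithelium was mammary was not tested. The REST and CONT libraries of MONT cow 9615 stood apart. Their deviations from the group means correlated at r = -0.33 across miRNAs, whereas the other cows gave 0.07 to 0.76. Results that rest on this cow are given with and without it.

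The family was led by miR-130a. The 5 members together took 250.4 to 650.0 CPM (median 311.8), and miR-130a held 75.8% ± 4.86 (SD, n = 22) of the family's counts. Next came miR-301a with 21.4% ± 4.33, followed by miR-130b with 1.66% ± 0.589, miR-454 with 0.852% ± 0.335 and miR-301b with 0.283% ± 0.147. This order held in 22 of 22 libraries. By mean level miR-130a was 83rd, miR-301a 128th, miR-130b 241st, miR-454 291st and miR-301b 358th among the 796 miRNAs. The ranges of miR-130b (33.2 to 127.7) and miR-454 (20.6 to 47.2 normalized counts) overlapped over the libraries, although miR-130b was the higher in each. Normalized counts are counts divided by a size factor estimated over the 22 libraries together. Mature miRNAs are of like length, so no length correction was used, and differences in ligation between miRNAs were not measured.

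**Figure D1:**
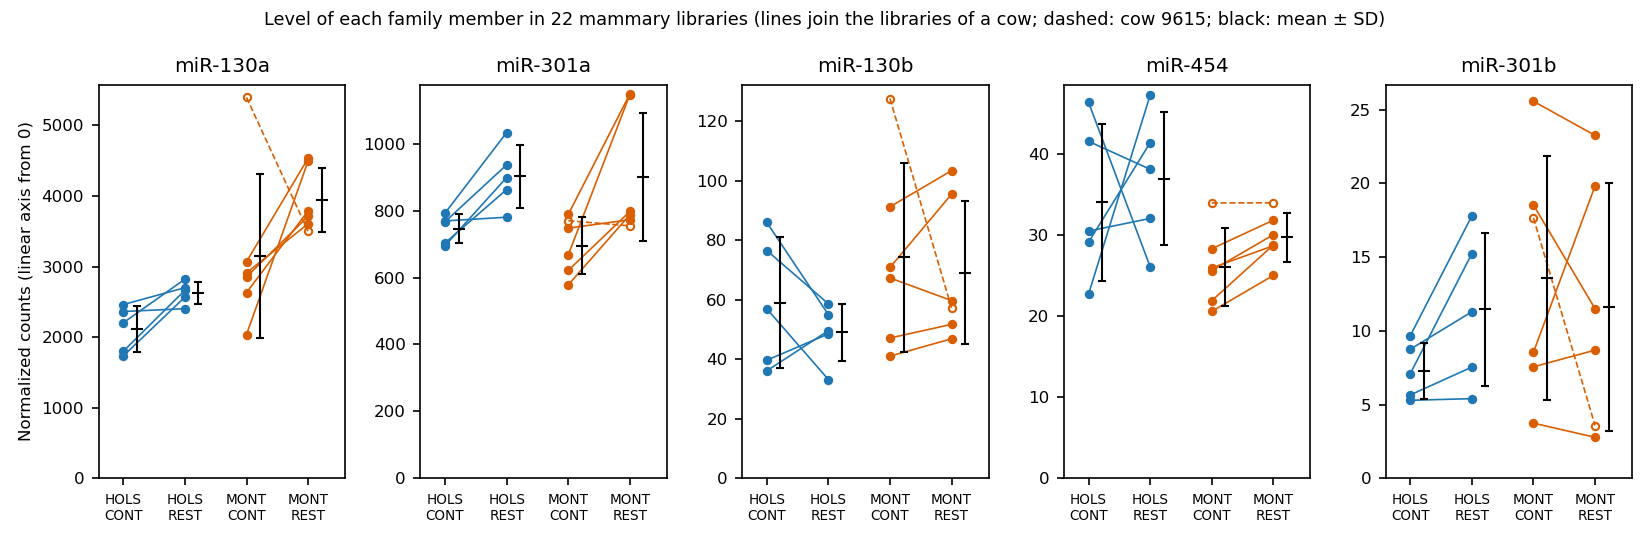
Normalized counts of each member (linear y axis from 0, a scale of its own per panel) in HOLS and MONT libraries at CONT and REST, with lines joining the libraries of a cow and the mean ± SD of each group in black. The miR-130a level of the MONT CONT library of cow 9615, 5396 normalized counts, lay above all other libraries.

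Levels in HOLS at both periods were compared to ask whether the family responded to restriction. For miR-130a the 5 HOLS CONT libraries had 1734, 1801, 2204, 2363 and 2461 normalized counts, and the REST libraries of the same cows had 2567, 2664, 2821, 2403 and 2700. On this scale every cow was higher at REST, but in CPM cow 9195 was lower (221.4 at CONT and 209.7 at REST). The highest CONT value exceeded the lowest REST value, so the groups overlapped. The group means were 2113 ± 329 and 2631 ± 156 (SD, n = 5). For miR-301a, the CONT libraries had 767, 695, 793, 703 and 769 normalized counts, and the REST libraries 937, 899, 1034, 863 and 780. It too was higher at REST in each cow on this scale, by little in cow 9195, while in CPM it was lower in cow 1155 (78.4 and 74.7) and cow 9195 (69.2 and 60.6).

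None of the 5 members passed the test in HOLS. The quasi-likelihood test of edgeR, adjusted by Benjamini-Hochberg over 374 miRNAs with a threshold of 0.05, called 2.41% of them. The log2 fold change (REST over CONT) of miR-130a was 0.31 (SE 0.13, adjusted p = 0.187) and that of miR-301a was 0.27 (SE 0.12, adjusted p = 0.191). These were the 2 members with an unadjusted p under 0.05, and DESeq2, which called 5.46% of the miRNAs it tested, called none of them either. Non-overlapping groups, which no member had, were seen for 7.22% of the miRNAs. With the cow as a block, which called 16.3% of the miRNAs, the adjusted p was 0.0512 for miR-130a and 0.0800 for miR-301a. With library totals in place of TMM the median of all miRNAs moved by -0.17, and the fold changes were 0.15 for miR-130a and 0.10 for miR-301a.

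The 3 scarce members varied more in HOLS. With 59.1 ± 22.02 (SD, n = 5) normalized counts at CONT and 49.0 ± 9.74 at REST, miR-130b was lower in 3 of 5 cows, with a log2 fold change of -0.25 (SE 0.25, adjusted p = 0.606 in edgeR). The level of miR-454 was 34.0 ± 9.67 and 37.0 ± 8.19, with a fold change of 0.11 (SE 0.23, adjusted p = 0.852 in edgeR). For miR-301b the means were 7.29 ± 1.90 and 11.4 ± 5.16, higher at REST in 5 of 5 cows, with a fold change of 0.61 (SE 0.35, adjusted p = 0.307 in edgeR). Its HOLS libraries held only 5 to 20 counts of miR-301b. The median log2 fold change of the 5 members was 0.27, against 0.02 over all miRNAs tested.

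In MONT, miR-130a had 2036 normalized counts in the lowest CONT library, 2883 at the median and 5396 in the highest. At REST the lowest, median and highest were 3501, 3750 and 4535. The highest CONT library belonged to cow 9615, whose level was lower at REST (3501), while the other 5 cows were higher at REST. Their CONT libraries reached at most 3068, below every MONT REST library. The group means over all 6 cows were 3149 ± 1158 and 3939 ± 456 (SD, n = 6).

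For miR-301a the lowest, median and highest MONT values were 578, 708 and 789 normalized counts in CONT and 755, 793 and 1149 in REST. The highest REST values came from cows 1652 and 2614, at 1149 and 1147, and the other 4 REST libraries stayed at or below 798. Group means were 696 ± 86.0 and 901 ± 191 (SD, n = 6).

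No member was called in MONT, where edgeR called 0 of 349 miRNAs (0.0%), 47 had an unadjusted p under 0.05, and 0 were called by DESeq2 or with a block for the cow. Groups that did not overlap were seen for 0.287% of the miRNAs and for no member. Of the family, 4 members passed the filter on low counts and miR-301b did not. The log2 fold change was 0.33 for miR-130a (SE 0.18, adjusted p = 0.437) and 0.36 for miR-301a (SE 0.17, adjusted p = 0.355), the latter being the member with an unadjusted p under 0.05. For miR-130b it was -0.10 (adjusted p = 0.860) and for miR-454 0.17 (adjusted p = 0.643). The median over the 4 tested members was 0.25, against -0.01 for all miRNAs.

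Without cow 9615, miR-130a rose in MONT. Its log2 fold change was then 0.55 (SE 0.15, adjusted p = 0.0391 in edgeR), in a fit that called 46 of 358 miRNAs (12.8%, and 7.26% as higher at REST). Its CONT and REST groups no longer overlapped, as was so for 9.46% of the miRNAs in these libraries. The change of miR-301a was 0.42 (adjusted p = 0.130), and 0.40 with the cow as a block (adjusted p = 0.0367), in a fit that called 39.1% of the miRNAs. The omission of this cow was chosen after its values were seen.

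The 4 stromal marker miRNAs (miR-199a-3p, miR-199a-5p, miR-199b and miR-214) moved with miR-130a in these libraries. Their summed level was 30175 normalized counts in the CONT library of cow 9615, against 8824 to 16717 in the other MONT CONT libraries. At REST it was 15192 in cow 9615 and 20100 to 36904 in the other MONT cows. In edgeR none of the 4 was called in MONT over all 6 cows (median log2 fold change 0.69), and all 4 rose without cow 9615 (median 1.12), in the fit that called 12.8% of the miRNAs, 7.26% as higher. In HOLS none was called, with a median of 0.29 and sums of 9327 to 12082 in CONT and 10714 to 15924 in REST. Across the 22 libraries, after subtracting group means on the log2 scale, miR-130a correlated with miR-199a-5p at r = 0.82, miR-199a-3p at 0.81, miR-214 at 0.79 and miR-199b at 0.74. Without cow 9615 these were 0.65, 0.71, 0.58 and 0.63 over 20 libraries. For miR-301a the same 4 correlations lay between 0.40 and 0.55, and between 0.31 and 0.59 without cow 9615. Of the 6 epithelial markers, 5 correlated negatively with both members, at r = -0.70 to -0.42 with miR-130a (-0.56 to -0.36 without cow 9615) and -0.79 to -0.49 with miR-301a (-0.80 to -0.47). The sixth, miR-205, correlated positively, at 0.21 with miR-130a (0.49 without cow 9615) and 0.38 with miR-301a (0.37). The endothelial miR-126-5p correlated at -0.20 with miR-130a (-0.15 without cow 9615) and -0.70 with miR-301a (-0.67). For miR-126-3p these were -0.32 (-0.23) and -0.40 (-0.32). Leukocyte markers lay at 0.32 to 0.60 with miR-130a (-0.09 to 0.33 without that cow) and 0.13 to 0.50 with miR-301a (0.04 to 0.49). The smooth muscle miR-143 and miR-145 gave 0.48 and 0.21 with miR-130a (0.36 and 0.06) and 0.16 and 0.24 with miR-301a (0.17 and 0.31). Between the periods, 1 of 6 epithelial markers fell over both breeds, miR-200b (-0.65, adjusted p = 0.00754 in edgeR), where 6.19% of all miRNAs fell and 2.06% rose. Without cow 9615, in the fit over both breeds in which 16.8% fell and 15.5% rose, 4 of 6 epithelial and all 4 stromal markers were called, as were the smooth muscle miRNA miR-143 (0.37, adjusted p = 0.0393), the leukocyte miRNA miR-155 (0.56, adjusted p = 0.0109) and the red blood cell miRNA miR-451 (-0.82, adjusted p = 0.0342). No stromal, endothelial, smooth muscle, leukocyte, red blood cell or skeletal muscle marker was called between the periods over all cows in edgeR. The members and markers of a library share its size factor in all these values. The part of the content of stroma, epithelium, endothelium, smooth muscle, leukocytes or red blood cells in the changes of miR-130a and miR-301a was not tested.

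**Figure D2:**
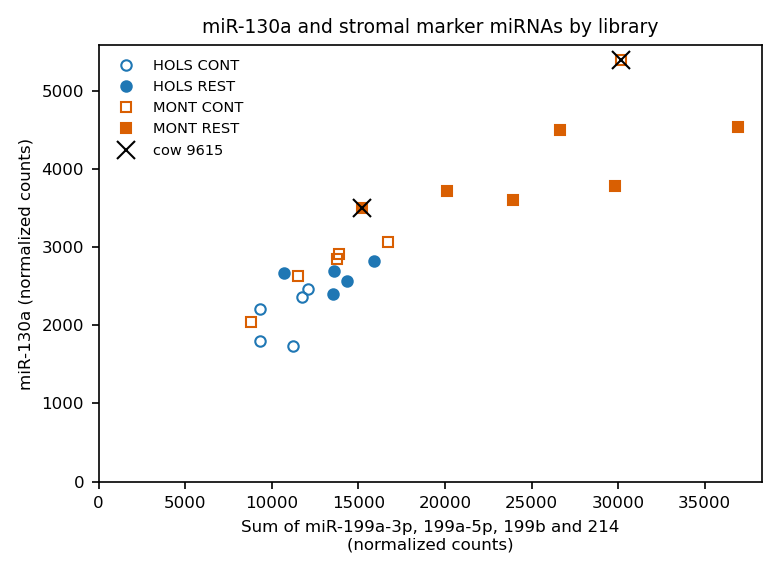
Normalized counts of miR-130a (y axis) against the summed normalized counts of 4 stromal marker miRNAs (x axis), both linear, one point per library. The CONT library of cow 9615 (5396 against 30175) had more miR-130a than any MONT REST library, and its REST library had the lowest stromal sum of that group, 15192.

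Per cow, and with size factors, miR-130a was higher at REST in 10 of 11 cows and so was miR-301a, with cow 9615 as the exception for both. In CPM these were 9 of 11 and 8 of 11 cows. The change was measured as the difference of log2(normalized counts + 1) between the biopsies of a cow. For miR-130a it averaged 0.36 ± 0.44 (SD, n = 11; two-sided exact paired permutation test, p = 0.0244) and ranged from -0.62 in cow 9615 to 1.14 in cow 2614. For miR-301a it averaged 0.32 ± 0.24 (exact paired permutation test, p = 0.00293, n = 11) with a range of -0.03 to 0.78. In CPM the mean change was 0.24 ± 0.44 for miR-130a (exact paired permutation test, p = 0.0996, n = 11) and 0.20 ± 0.29 for miR-301a (p = 0.0410), so the result for miR-130a rests on the scaling. With size factors and without cow 9615 the means were 0.46 ± 0.31 and 0.35 ± 0.22, both with p = 0.00195, the smallest that the exact test allows for n = 10. In CPM the same 10 cows gave exact p = 0.00391 for miR-130a and 0.0195 for miR-301a. In these 10 cows 9.79% of 388 miRNAs were higher at REST in every cow, and in all 11 cows 1.03% were. The share of all miRNAs higher in 10 of 11 cows, or with an exact p this small, was not computed.

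The other members had no common direction over the cows. For miR-454 the level was higher at REST in 6 of 6 MONT cows, by 0.20 ± 0.13 (exact paired permutation test, p = 0.031, n = 6, the smallest possible), although cow 9615 moved by no more than 33.95 to 33.97 normalized counts, and in CPM 4 of 6 were higher (exact p = 0.312). In HOLS the same miRNA was higher in 3 of 5 cows. For miR-301b it was the reverse, with 5 of 5 HOLS cows but 2 of 6 MONT cows higher at REST (4 of 5 and 3 of 6 in CPM). At REST miR-130b was higher in 6 of 11 cows. In HOLS, with 5 cows, the smallest p that this exact test could give was 0.062. With size factors and all cows there were 15 exact tests (5 members in HOLS, MONT and both). The exact tests in CPM and those without cow 9615 came on top of these 15. None of these p-values was adjusted. The shares of all miRNAs with the same counts of cows within a breed, or the same exact p, were not computed.

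**Figure D3:**
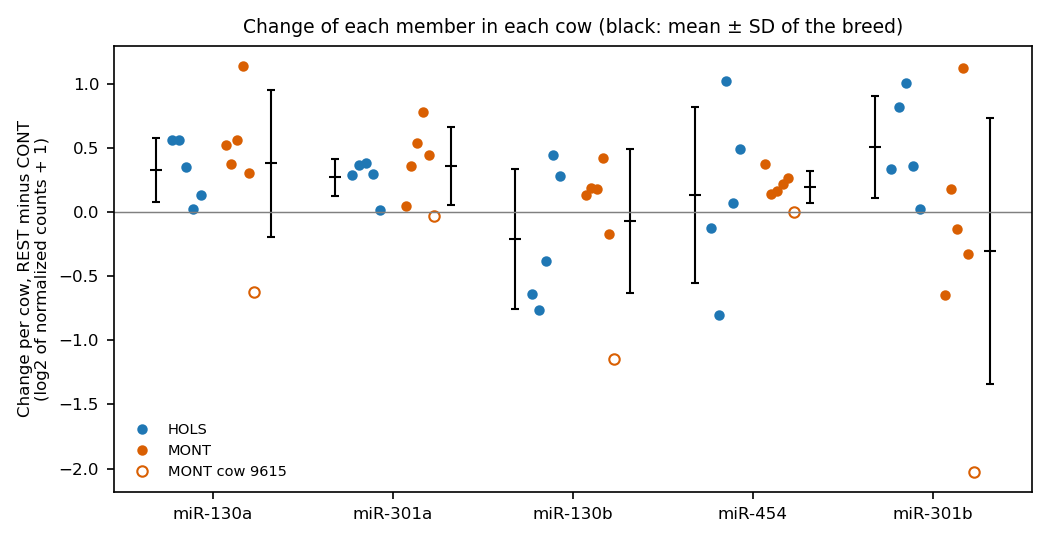
Change of each member in each cow (y axis: REST minus CONT, log2 of normalized counts + 1), by breed, with the mean ± SD of each breed in black. For miR-130a and miR-301a every point lies above 0 on this scale but that of MONT cow 9615 (open circle).

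Over both breeds in one fit, none of the 5 members passed the threshold in edgeR, where 8.25% of 388 miRNAs were called. The log2 fold change was 0.29 for miR-301a (SE 0.10, adjusted p = 0.0649) and 0.28 for miR-130a (SE 0.13, adjusted p = 0.160), both with an unadjusted p under 0.05. In DESeq2, with 11.3% called, 1 member, miR-301a, rose (0.33, adjusted p = 0.0116). With a block for the cow 11.1% were called and no member. Without cow 9615 both rose in edgeR, miR-130a by 0.44 (adjusted p = 0.00336) and miR-301a by 0.35 (adjusted p = 0.0191), in a fit that called 32.2% of 388, 15.5% as higher at REST. With the block as well, 47.4% were called, among them the same 2 members (adjusted p = 7.3e-04 and 0.00268). The remaining members had fold changes of -0.22 for miR-130b, 0.10 for miR-454 and 0.20 for miR-301b, with adjusted p of 0.501, 0.680 and 0.725 in edgeR.

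The response was not shown to differ between the breeds. The interaction of breed and period, as the HOLS change minus the MONT change, was -0.06 for miR-130a (95% interval -0.57 to 0.46), -0.14 for miR-301a (-0.54 to 0.26), -0.20 for miR-130b (-1.07 to 0.67), -0.11 for miR-454 (-0.72 to 0.49) and 0.72 for miR-301b (-0.67 to 2.11). Each had an adjusted p of 0.991 in edgeR. Of 388 miRNAs 0 were called (0.0%), and 3 had an unadjusted p under 0.05, none of them a member. DESeq2 also called 0, and 5.93% were called with a block for the cow and without cow 9615, none of them a member.

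Between the breeds, miR-130a was lower in HOLS. Breed cannot be told apart here, at either period, from anything else that differed between the breeds' libraries. The study reports more short and adapter reads and a smaller share of clean reads in MONT. At REST the 5 HOLS libraries held 2403 to 2821 normalized counts and the 6 MONT libraries 3501 to 4535, so the groups did not overlap, as was so for 9.02% of the miRNAs and, with HOLS the lower, for 4.64%. The log2 fold change (HOLS over MONT) was -0.61 (SE 0.18, adjusted p = 0.0279 in edgeR). It was the only member of 5 that passed, in a fit that called 13.7% of 388 miRNAs, 8.76% as lower in HOLS. DESeq2, with 20.7% called, gave -0.58 (adjusted p = 0.0170). The call was lost without a filter on low counts (adjusted p = 0.0789) and when any of cows 1155, 1165, 2182, 8200, 9195 or 1652 was left out, with adjusted p from 0.0528 to 0.112. Without cow 9615 it was -0.66 (adjusted p = 0.00191), with 26.0% of the miRNAs called.

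The miR-301a levels of the breeds at REST lay close together, with means of 903 ± 93.3 in HOLS and 901 ± 191 in MONT and a log2 fold change of -0.02 (95% interval -0.30 to 0.26). The ratio of miR-130a to miR-301a counts, which does not depend on the size factors, was accordingly 2.73 to 3.46 in HOLS REST and 3.92 to 4.90 in MONT REST, without overlap. This pair was chosen, its miR-130a levels did not overlap by themselves, and the share of other ratios without overlap was not computed. In CONT it was 2.26 to 3.36 in HOLS and 3.05 to 7.01 in MONT, where the groups overlapped and the highest value was again cow 9615. At REST the fold change was -0.52 for miR-130b (adjusted p = 0.212), 0.29 for miR-454 (adjusted p = 0.326) and -0.17 for miR-301b (adjusted p = 0.830), all in edgeR.

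In CONT none of the 5 members passed, in a fit that called 7.47% of 388 miRNAs. The log2 fold change of miR-130a was -0.55 (SE 0.18, adjusted p = 0.0660 in edgeR), and it was the member with an unadjusted p under 0.05. DESeq2 called it (-0.58, adjusted p = 0.0422, with 5.24% of the miRNAs called), as did edgeR without cow 2614 (-0.66, adjusted p = 0.0276). Without cow 9615 it was -0.35 (adjusted p = 0.157), with 0.515% called. The HOLS CONT libraries reached 2461 normalized counts, above the lowest MONT CONT library at 2036. Of all miRNAs, 2.58% had breeds that did not overlap in CONT. The other fold changes in CONT were 0.12 for miR-301a, -0.33 for miR-130b, 0.40 for miR-454 and -0.89 for miR-301b, with adjusted p from 0.246 to 0.653 in edgeR. The CONT and REST comparisons of the breeds are of the same cows.

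**Figure D4:**
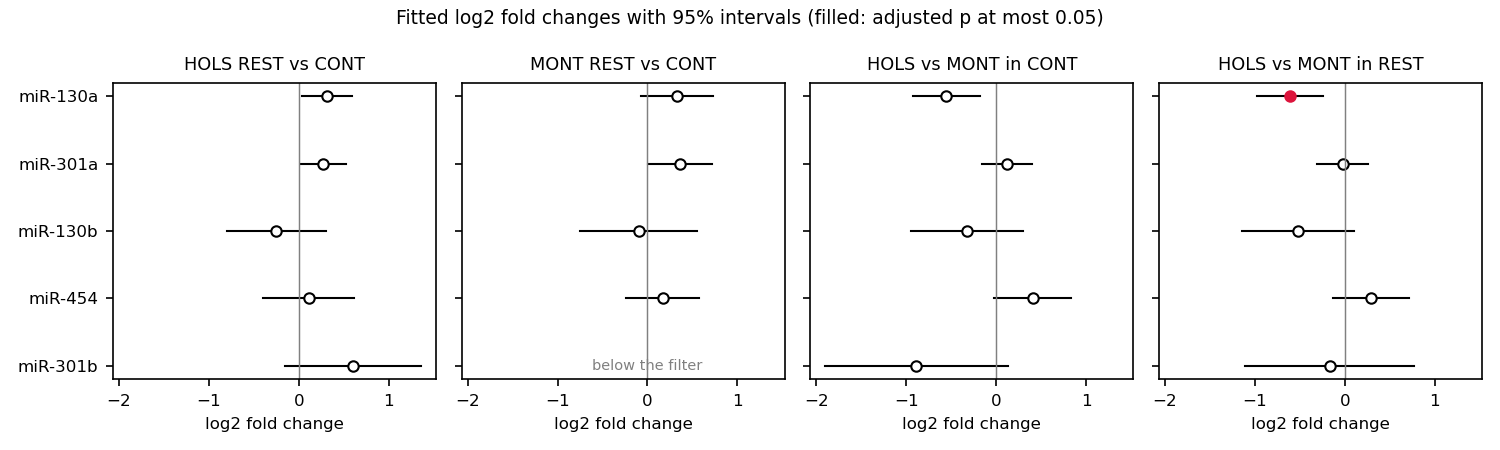
Log2 fold changes (x axis) of the members in 4 comparisons with 95% intervals from the edgeR fit, filled where the adjusted p was at most 0.05. The only filled point is miR-130a in HOLS against MONT at REST (-0.61), and miR-301b was below the filter in MONT.

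Some cell type markers also differed between the breeds at REST. The fit called 13.7% of 388 miRNAs, 4.9% as higher and 8.76% as lower in HOLS. Of the 4 stromal markers, 3 were lower in HOLS (miR-199a-3p -0.99, miR-199a-5p -0.997 and miR-214 -1.19, adjusted p from 0.0132 to 0.0420 in edgeR) and miR-199b was at -0.55 (adjusted p = 0.0617). The stromal sums were 10714 to 15924 in HOLS REST and 15192 to 36904 in MONT REST. Of the 6 epithelial markers, miR-141 was higher (1.03, adjusted p = 0.0494 in edgeR) and miR-205 lower (-0.62, adjusted p = 0.0132) in HOLS. The epithelial sums were 267405 to 641434 normalized counts in HOLS REST and 139185 to 372027 in MONT REST. Of 2 endothelial markers, miR-126-3p was higher in HOLS (0.49). None of 5 leukocyte, 2 smooth muscle, 3 red blood cell or 2 skeletal muscle markers was called there in edgeR. No marker with values was at 0 in all libraries of a group, and miR-206, a further skeletal muscle marker, had no values. Without cow 9615, where 10.6% of all miRNAs were higher and 15.5% lower in HOLS, all 4 stromal markers were called (median -1.13), along with 3 epithelial markers (miR-141, miR-205 and miR-200c, the last at 1.19), both endothelial markers and 1 leukocyte marker, miR-150 (-0.66, adjusted p = 0.0394). In CONT, where the miR-130a difference was -0.55, none of the 4 stromal markers was called (median -0.59), beside 7.47% of all miRNAs. Without cow 9615 the CONT difference of miR-130a was -0.35 and the stromal median -0.19, with 0.515% of all miRNAs called. The part of the cell type markers in the breed difference of miR-130a was not tested.

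Other miRNAs known for roles in fat synthesis or PPARG signalling were compared in the same fits. Of a list of 17, which holds miR-27a-3p and miR-27b (further repressors of PPARG), miR-33a and miR-33b (encoded within the SREBF genes) and miR-103, miR-107, miR-148a and miR-378, 0 passed in HOLS, in MONT and in either breed comparison in edgeR. Of all miRNAs, 2.41% were called in HOLS and 0.0% in MONT, and between the breeds 7.47% in CONT and 13.7% at REST. Over both breeds 1 of the list passed, miR-26b, which rose by 0.36 (adjusted p = 0.0470), beside 8.25% of all miRNAs called. The list's median log2 fold change was 0.01 in HOLS, 0.09 in MONT and 0.02 over both. The PPARG repressors outside the family had log2 fold changes over both breeds of 0.02 (SE 0.08) for miR-27a-3p and 0.06 (SE 0.09) for miR-27b. Without cow 9615, 3 of 17 rose and 4 fell over both breeds, in the fit that called 32.2% of all miRNAs (15.5% higher and 16.8% lower). Those that rose were miR-143 (0.37), miR-26a (0.35) and miR-26b (0.31), and those that fell were miR-148a (-0.60), miR-33b (-0.54), miR-33a (-0.44) and miR-103 (-0.34). Between the breeds at REST, 5 of 17 were called without cow 9615, where 26.0% of all miRNAs were. In HOLS miR-148a (1.06), miR-26b (0.52) and miR-103 (0.41) were then higher, and miR-27a-3p (-0.33, adjusted p = 0.0170) and miR-27b (-0.40, adjusted p = 0.0181) lower. No member of the list was called in MONT without that cow, where 12.8% of all miRNAs were.

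Members varied together to different degrees. After subtracting group means on the log2 scale, the highest correlation over the 22 libraries was that of miR-301a with miR-301b (r = 0.82), whose genes are not neighbours. The neighbours miR-130b and miR-301b gave r = 0.41, and the neighbours miR-301a and miR-454 gave 0.16. The leading pair, miR-130a and miR-301a, gave 0.43, and 0.40 without cow 9615. For miR-130a and miR-130b r was 0.35, and 0.05 without that cow. Sampling noise in the scarce members limits these values. So does the unknown handling of reads shared by the nearly identical miR-301a and miR-301b, or miR-130a and miR-130b. The part of shared reads in their r was not tested.

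The 3 miRNAs most like each member were named from 348 with a mean of at least 10 normalized counts, by the same correlation over 22 libraries. For miR-130a they were miR-140 (r = 0.87), a miRNA known for its role in cartilage, miR-455-5p (0.84) and miR-199a-5p (0.82). The median over the 348 was 0.01. Without cow 9615 these 3 miRNAs gave r = 0.81, 0.74 and 0.65 with miR-130a. For miR-301a they were miR-15b (0.84), miR-136 (0.76) and miR-493 (0.75), and for miR-130b miR-9 (0.78), miR-493 (0.77) and miR-296-3p (0.74). For miR-454 the highest were lower, with miR-487a at 0.63, miR-24 at 0.53 and let-7c at 0.51. Like miR-130a, miR-455-5p was lower in HOLS at REST (-0.77, adjusted p = 0.0186 in edgeR), and it was also called in CONT (-0.86, adjusted p = 0.0400). The level of miR-140 was lower in HOLS in CONT (-0.36, adjusted p = 0.0486) and at -0.31 in REST (adjusted p = 0.0642). These fits called 7.47% of all miRNAs in CONT and 13.7% at REST. Without cow 9615, where 0.515% were called in CONT, both calls in CONT were lost. There miR-455-5p was at -0.69 (adjusted p = 0.0955 in edgeR) and miR-140 at -0.30 (adjusted p = 0.135). At REST both were then called (-0.84 and -0.35), with 26.0% of all miRNAs.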

How the data were processed

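Small RNA of mammary biopsies was sequenced in 1 library per cow and period (HOLS 5 cows, MONT 6 cows). The authors trimmed adapters, filtered reads by size, and quantified them with ncPRO-seq and miRDeep2. The deposited counts are whole and not normalized. The deposited normalized signal is the counts divided by DESeq2 size factors within each breed (DESeq2 1.18.1 per the submitters' processing notes), and recalculation gave the same values to within a relative difference of 8.4e-10. Further deposited columns hold the authors' fold changes and p-values and were not used.

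Values printed here are counts divided by size factors estimated over all 22 libraries (DESeq2 1.42.0). Counts were tested with edgeR 4.0.16 in R 4.3.3 (TMM, filterByExpr with a minimum count of 10, quasi-likelihood F test, Benjamini-Hochberg adjustment, threshold 0.05), within a breed for the periods and over all libraries for breed comparisons and the interaction. Breed comparisons and the fit over both breeds take libraries as independent unless the cow is a block. Changes per cow were tested with a two-sided exact sign-flip permutation test (all sign flips enumerated in Python 3.11.15). The edgeR fit without a block was tested on simulated counts, in every comparison but HOLS against MONT at REST. The simulated libraries were independent, and the blocked fits, DESeq2 and the exact test were not tested in this way. Alternatives were DESeq2, a block for the cow, size factors of DESeq2 or library totals in place of TMM, no filter, and each cow left out.

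The number in a label is the cow, so REST and CONT libraries are paired by animal. Their deviations correlated at 0.25 to 0.53 in HOLS and at 0.07 to 0.76 in 5 MONT cows, and at -0.33 in cow 9615. As no block is given in the methods of the study, libraries were not blocked by cow in the tests reported first.

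All 5 members were described. Other miRNAs were named as the 3 most like each member, as members of the lists, or where 5 or fewer of a list were called. The members and lists were chosen with earlier results of these data known. Sequences of the members were not used here, so miRNAs of the same seed under other names were not looked for.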

Additional observations from a re-analysis of the deposited data

Results flagged for a closer look

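The MONT CONT library of cow 9615 held 5395.77 normalized counts of miR-130a (3973 counts), while the other 5 MONT CONT libraries held 2036 to 3068. Its gap to the nearest library was 0.693 of the range of the group, above Dixon's critical value of 0.625 for 6 samples. It was the only one of 20 groups (5 members in 4 groups) with a value set apart, and chance alone gives about 1 in 20. In the same library the stromal marker miRNAs summed to 30175 normalized counts, against at most 16717 in the other MONT CONT libraries.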

How the results depend on the processing

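Over 416 recalculated fold changes of single members, 373 kept their direction and side of the threshold. Of the rest, 25 reversed direction, 11 became called and 7 lost their call. The number of members called depended on a few settings. In MONT it was 0 and became 1 without cow 9615 (0 to 1 over the cows left out) and 2 with the replicate block and without that cow, a fit added after seeing the data. Over both breeds it was 0, and 1 with DESeq2, 1 with DESeq2 size factors, 0 to 2 with a cow left out and 2 with the block and without cow 9615. For HOLS against MONT it was 0 in CONT, 1 with DESeq2 and 0 to 1 with a cow left out, and in REST 1, 0 without a filter and 0 to 1 with a cow left out. For the change per cow 2 members had p at most 0.05 over all 11 cows, 1 (miR-301a) when the values were scaled by library totals, and 2 to 3 with a cow left out. The share of all miRNAs with so small an exact p was not computed. In HOLS and for the interaction 0 members were called under every alternative. The cause of these differences was not tested.

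The replicate block by itself changed no call of a member (0 in HOLS, MONT and over both breeds), while the calls over all miRNAs were 9 without and 61 with it in HOLS, 0 and 0 in MONT, and 32 and 43 over both breeds.

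Reversed directions concerned uncalled values. In HOLS miR-454 (0.11) was at -0.0675 with library totals and between -0.12 and 0.30 with a cow left out. In MONT miR-130b (-0.10) was at 0.15 without cow 9615, at 0.14 with the block as well, and between -0.22 and 0.15 over the cows left out. The interaction ranged from -0.31 to 0.13 for miR-130a, from -0.4904 to 0.0339 for miR-130b and from -0.27 to 0.20 for miR-454 with a cow left out. In HOLS against MONT at REST miR-301a (-0.02) was at 0.0209 without a filter and between -0.0982 and 0.0617 with a cow left out, and miR-301b ranged from -0.3674 to 0.0612.

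Calls over all miRNAs also moved. They were 5 to 61 in HOLS (3 to 14 with a cow left out), 0 to 140 in MONT (0 to 46), 14 to 184 over both breeds (7 to 125), 0 to 23 for the interaction, 3 to 32 in CONT (0 to 31) and 39 to 85 in REST (16 to 101) between breeds. In 2 of the 5 fits with a HOLS cow left out, miR-301b did not pass the filter and gave no value. The 2 to 38 counts per library of miR-301b limit what could be seen of it.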
